A study of Mus musculus with 2 samples.

Results

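Liver sinusoidal endothelial cells line the blood channels of the liver lobule. Unlike the endothelium of ordinary capillaries they carry open pores and little basement membrane, and they take up hyaluronan, immune complexes and other debris from the blood through scavenger receptors. In fibrosis these cells can take on features of a continuous capillary wall, a process known as capillarization, in which sinusoidal receptors are lost and proteins such as CD34 and von Willebrand factor appear. The 10 genes described here stand for both states. Stab1, Stab2, Lyve1, Clec4g, Fcgr2b and Dnase1l3 mark the sinusoidal state, and Vwf, Pecam1, Cd34 and Plvap mark capillary endothelium. They were chosen by name: each array probe whose RefSeq transcript belongs to a listed gene was taken, which gave 12 probes and 22 spots, of 20284 genes matched on the array.

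Total liver RNA came from male C57BL/6 mice with liver fibrosis that were given recombinant TSG-6 intravenously or PBS as the control, and was taken 2 weeks later. TSG-6 is a secreted protein that binds hyaluronan through a Link module, the same type of domain that Lyve1 and the stabilins carry. For each group, equal amounts of RNA from 3 mice were pooled and hybridised to 1 one-colour Agilent array, so each group is 1 pool and there is no replicate. How fibrosis was induced and the dose of TSG-6 are not given in the sources used here, and liver without fibrosis was not analysed here. Both arrays lay on the same slide and were scanned together, per the file headers. No test can be made with 1 array per group, so the text prints neither p-values nor SEs, each difference compares 2 pools, and array and group cannot be told apart.

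A level is the log2 processed signal of a probe minus the log2 75th percentile of its array, which stood at 3158 for PBS and at 2476 for TSG-6. A difference is the TSG-6 level minus the PBS level. Of 59305 non-control spots, the scanner software flagged 3.40% (PBS) and 6.44% (TSG-6) as outliers, and these were left out. Of the rest, 73.1% and 73.9% were well above background. All 12 probes of the 10 genes were well above background on both arrays and none was saturated. As a check of the tissue label, the 7 measured of 9 hepatocyte markers all lay above the 75th percentile on both arrays. In whole liver, fewer cells of a type and less RNA per cell cannot be told apart.

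Of the 9 genes measured on both arrays, none was 2-fold higher and none 2-fold lower in the TSG-6 pool, beside 7.23% of the 15151 genes measured in all (2.94% higher and 4.29% lower). The split of these calls over all genes depends on the scaling: 446 were higher and 650 lower here, 1018 and 376 with the percentile of unflagged spots, 189 and 1410 with spike-in scaling, 340 and 813 with median scaling and 334 and 828 with loess. The 5 measured sinusoidal genes had a median log2 difference of 0.27, from -0.26 to 0.84, and 4 of them lay above 0. The 4 capillary genes had a median of 0.09, from -0.18 to 0.22, with 2 above 0 and 2 below. Over all measured genes the median was 0.08, with the middle 50% between -0.23 and 0.33, and 57.5% lay above 0. Among the 6648 genes above the 75th percentile on both arrays, where most of the 10 genes lie, the median was 0.10. The scale of these differences depends on how the arrays are set against each other: when scaled to the spike-in controls all values are 0.37 lower, the sinusoidal median is -0.10 and that of all genes -0.30.

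**Figure D1:**
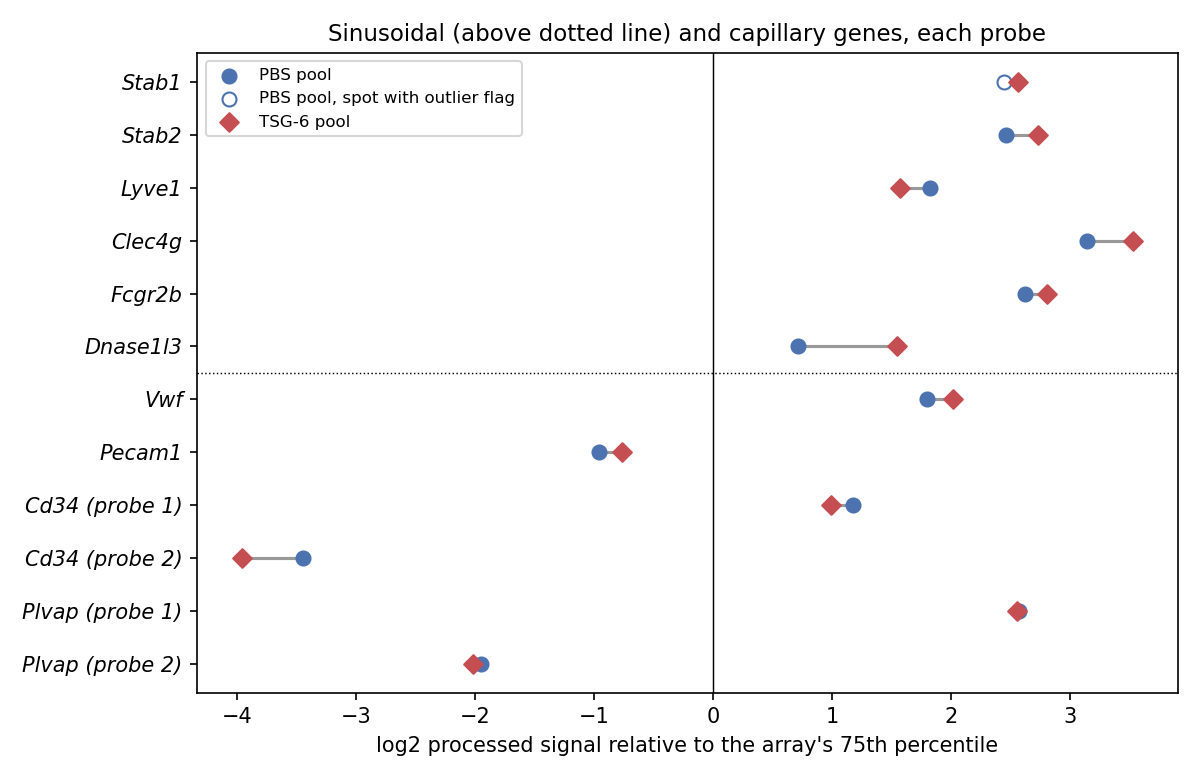
Log2 processed signal relative to the array's 75th percentile (horizontal axis) for each of the 12 probes of the 10 genes, with the PBS pool as circles and the TSG-6 pool as diamonds; the dotted line separates sinusoidal from capillary genes, and the open circle is a spot with an outlier flag. The longest line is that of Dnase1l3, from 0.71 to 1.55, and the markers of the brighter Plvap probe, at 2.57 and 2.55, nearly coincide.

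Among the scavenger receptors, Stab2, which clears hyaluronan from the blood, gave a signal of 17391 in the PBS pool and 16461 in the TSG-6 pool. These are levels of 2.46 and 2.73 and a difference of 0.27, or 1.21-fold, which turned to -0.10 with spike-in scaling. Stab1, its close relative, gave 17253 and 14658. The only Stab1 spot carried an outlier flag on the PBS array, so this gene was not measured under the main setting; with flagged spots kept its levels were 2.45 and 2.57 and it differed by 0.12. Both stabilins thus read dimmer as signals and slightly higher once each array was scaled to its 75th percentile.

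Lyve1, a hyaluronan receptor of sinusoidal and lymphatic endothelium, read lower in the TSG-6 pool. Its signal was 11208 in the PBS pool and 7364 in the TSG-6 pool, and its levels were 1.83 and 1.57. The difference of -0.26, or 1.19-fold lower, was the lowest of the 9 measured genes, here and in 11 of 12 alternative settings (Cd34 was lower when read as the mean of its probes); it was below 0 in 11 of 12 alternative settings and 0.03 with the percentile of unflagged spots. Constant scaling cannot change its place among the 9 genes. Of all measured genes, 23.2% had a lower difference. Of the 3 receptors with a Link-type domain, Lyve1 was therefore the one on the lower side, with a difference 0.53 below that of Stab2 (a gap that constant scaling of an array cannot move).

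Clec4g, a C-type lectin known as LSECtin, was 1 of the 2 genes whose unscaled signal was higher in the TSG-6 pool, at 27853 and 28589. Its levels were 3.14 and 3.53 and its difference 0.39, or 1.31-fold higher. It stayed above 0 in all 12 alternatives, down to 0.02 with spike-in scaling. The other 8 of the 10 genes had a lower unscaled signal in the TSG-6 pool.

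Dnase1l3, a secreted nuclease that degrades DNA in chromatin, had the highest difference of the 9 measured genes. It also did in all 12 alternatives, of which those with constant scaling cannot change the order. Its signal was 5176 in the PBS pool and 7240 in the TSG-6 pool, with levels of 0.71 and 1.55. The difference was 0.84, or 1.78-fold higher, above that of 95.4% of all measured genes and of 97.8% of the brighter genes. It lay between 0.46 with spike-in scaling and 1.12 with the percentile of unflagged spots, the only alternative in which it passed 2-fold. With spike-in scaling it was not the largest in size, since Lyve1 stood at -0.63 and Cd34 at -0.55. At a smaller size of 1.5-fold, chosen after its value was seen, it was the only one of the 9 genes to pass with 75th percentile scaling, beside 10.5% of all measured genes that were at least 1.5-fold higher. Dnase1l3 has 1 probe with 1 spot on each array, so its own spot noise is unknown.

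Fcgr2b, the inhibitory Fc receptor through which sinusoidal cells clear immune complexes, is the gene measured most precisely, with 10 spots of the same probe on each array. On the PBS array its 9 unflagged spots ran from 18781 to 20395 with a median of 19417. On the TSG-6 array its 7 unflagged spots ran from 16815 to 18048 with a median of 17289. After scaling the mean level was 2.62 ± 0.04 (SD over 9 spots) in the PBS pool and 2.81 ± 0.03 (SD over 7 spots) in the TSG-6 pool. The unflagged spots of the 2 arrays did not overlap on that scale, and the difference was 0.19, or 1.14-fold. The flagged TSG-6 spots, at 2.67, 2.93 and 2.95, lay outside the range of the unflagged ones, so leaving them out narrowed the SD. With them kept the arrays overlapped, since the highest PBS spot stood at 2.69. Spots of 1 array are repeat measurements of 1 RNA pool and say nothing of the spread between mice. With spike-in scaling the difference was -0.18, so its sign changed with the scaling of the arrays. Over the 327 probes with repeat spots the SD of the log2 difference between spots was 0.13.

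**Figure D2:**
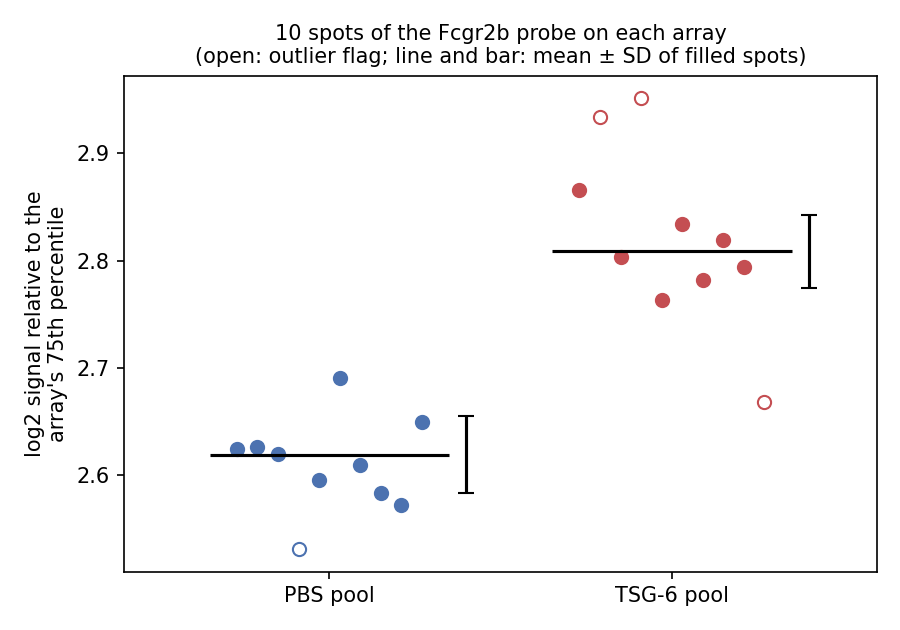
Log2 signal relative to the array's 75th percentile (vertical axis) for each of the 10 Fcgr2b spots in the PBS and TSG-6 pools; open points carry an outlier flag, the line is the mean and the bar the SD of the filled points. The filled points lie around 2.62 in the PBS pool and 2.81 in the TSG-6 pool without overlap. The lowest open TSG-6 point, at 2.67, lies below the highest PBS point, at 2.69.

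Of the capillary genes, Vwf, which encodes the platelet-tethering von Willebrand factor, gave signals of 10981 in the PBS pool and 10019 in the TSG-6 pool. Its levels were 1.80 and 2.02, a difference of 0.22, or -0.15 with spike-in scaling. Pecam1, the junction protein CD31, is measured by 1 probe with 2 spots, at 1611 and 1644 in the PBS pool and 1365 and 1554 in the TSG-6 pool. Its mean levels were -0.96 and -0.77, a difference of 0.19, or -0.18 with spike-in scaling. These 2 genes, both also made by platelets or their precursors, read slightly higher after scaling.

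Cd34, a sialomucin of continuous endothelium and of blood progenitors and fibroblasts, had 2 probes. The brighter gave 7139 in the PBS pool and 4936 in the TSG-6 pool, levels of 1.18 and 0.995 and a difference of -0.18. The dimmer gave 289.6 and 159.3 and a difference of -0.51, so both probes lay below 0, and the mean over both was -0.35. With the percentile of unflagged spots the brighter probe stood at 0.11. Plvap, which forms the diaphragms of capillary pores and caveolae, also had 2 probes, at 18778 and 14552 for the brighter and 819.8 and 612.9 for the dimmer. Their differences were -0.02 and -0.07, and the brighter probe ran from -0.39 with spike-in scaling to 0.27 with the percentile of unflagged spots. Its difference was the smallest in size of the 9 genes here and in 7 of 12 alternatives; Fcgr2b was closer to 0 with loess, quantile or median scaling, Clec4g with spike-in scaling and Lyve1 with the percentile of unflagged spots.

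**Figure D3:**
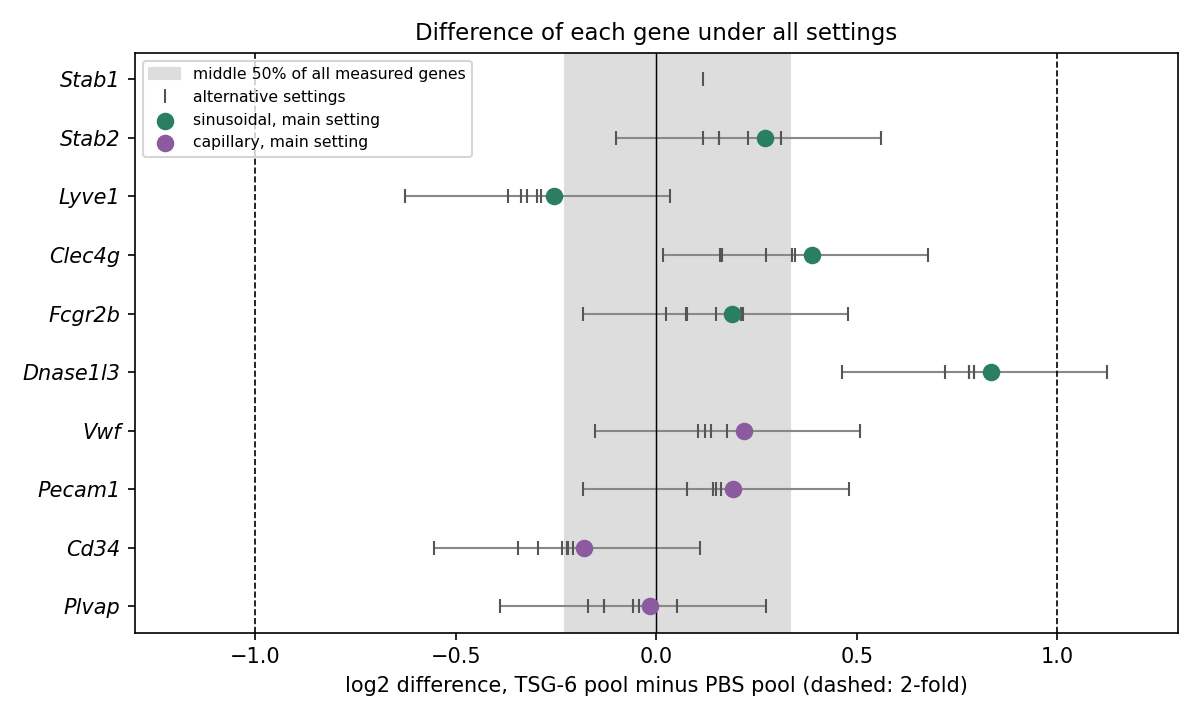
Log2 difference between the TSG-6 and PBS pools (horizontal axis) for each gene, with filled circles for the main setting, ticks for the 12 alternative settings and a grey band for the middle 50% of all measured genes (-0.23 to 0.33); dashed lines mark 2-fold. Stab1 has 1 tick, 0.12, with flagged spots kept, and Dnase1l3 lies to the right of the band at 0.84 while Lyve1 lies just left of it at -0.26.

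Set against each other, the sinusoidal median stood 0.18 above the capillary median on the log2 scale, and in 14 of 20 gene pairs the sinusoidal gene had the higher difference. Constant scaling moves both medians alike, and over the 12 alternatives the gap ran from 0.14 to 0.20. Without Dnase1l3 it was 0.14, and with flagged spots kept, which brings in Stab1, it was 0.15 with 17 of 24 pairs. The gap is small beside the spread inside the lists. The sinusoidal genes spanned 1.09 between Lyve1 and Dnase1l3, a 2.13-fold change of their ratio between the pools that ran from 1.07 to 1.12 on the log2 scale over the alternatives, and the capillary genes spanned 0.40. The ranges of both lists overlapped, since Lyve1 lay below all 4 capillary genes and Fcgr2b between them. No replicate pool is at hand to judge a gap of this size.

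Promoter sequences are shown for members on both sides of this comparison. RefSeq promoter windows (build GRCm38.p6) were found for 5 of the 10 genes, namely Stab1, Stab2, Clec4g, Fcgr2b and Cd34. The 250 bases before the start were searched on both strands for AGGAAG, a core bound by ETS factors such as ERG and FLI1, and for GATAA, a core bound by GATA factors such as GATA4; the motifs do not overlap each other. AGGAAG was found in 4 of the 5 windows, all but that of Fcgr2b, beside 29.5% of all 32851 windows, and GATAA in none, beside 22.6%. Clec4g has 3 matches, 2 of which overlap. Matches are in capitals, bases inside the annotated gene are left out, and a match is a description of the letters only. The match of Stab2, at position -40, lies in the bases left out, and the Stab2 window is not printed.
Stab1, chr14:31168652-31168891, minus strand: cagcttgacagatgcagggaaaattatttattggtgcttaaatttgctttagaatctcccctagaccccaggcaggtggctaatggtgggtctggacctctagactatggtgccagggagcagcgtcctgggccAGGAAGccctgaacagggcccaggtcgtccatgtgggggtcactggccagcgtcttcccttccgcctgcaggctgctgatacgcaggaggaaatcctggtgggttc
Clec4g, chr8:3720696-3720901, minus strand: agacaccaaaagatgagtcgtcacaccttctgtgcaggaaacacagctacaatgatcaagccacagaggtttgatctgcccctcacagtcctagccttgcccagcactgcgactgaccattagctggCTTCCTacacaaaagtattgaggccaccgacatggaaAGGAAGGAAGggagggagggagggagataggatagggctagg
Fcgr2b, chr1:170976072-170976321, minus strand: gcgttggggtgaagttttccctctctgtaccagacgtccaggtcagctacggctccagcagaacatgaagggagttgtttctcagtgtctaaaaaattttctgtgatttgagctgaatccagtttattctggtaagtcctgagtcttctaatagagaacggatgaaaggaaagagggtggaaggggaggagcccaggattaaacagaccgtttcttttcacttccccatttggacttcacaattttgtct
Cd34, chr1:194938571-194938820, plus strand: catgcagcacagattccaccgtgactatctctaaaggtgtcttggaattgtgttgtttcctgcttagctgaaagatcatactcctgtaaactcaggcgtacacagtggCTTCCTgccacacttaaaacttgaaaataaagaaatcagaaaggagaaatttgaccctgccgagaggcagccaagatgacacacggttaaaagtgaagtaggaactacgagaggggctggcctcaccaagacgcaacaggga
Among these 4 genes the log2 difference was 0.12 for Stab1 (flagged spot kept), 0.39 for Clec4g and -0.18 for Cd34, whose windows hold the motif, and 0.19 for Fcgr2b, whose window does not. Stab2, whose window also holds the motif but is not printed, differed by 0.27.

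Other genes of sinusoidal endothelium showed small differences like those of Stab2 and Fcgr2b. Of 14 such genes 10 were measured, 9 above 0, with a median of 0.17, and none passed 2-fold in either direction. The largest were Bmp2, an angiocrine signal in iron control (1.36-fold higher), the VEGF receptors Flt4 (1.35-fold) and Kdr (1.31-fold), and Bmp6 (1.17-fold). Gata4, the transcription factor of sinusoidal identity, differed by 0.01, and Clec1b, a lectin also found on platelets, by -0.02; these 2 were named after their values were seen. With spike-in scaling the median was -0.20 and 3 of the 10 lay above 0. With median, quantile or loess scaling 6 of the 10 did. The 4 others, Oit3, Mrc1, Maf and Ctsl, had only flagged spots on an array and lay between -0.03 and 0.13 with them kept.

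Pan-endothelial genes stood at 0.00 in the median over 26 of 27 genes, 13 above and 13 below 0, with none past 2-fold. The largest were the transcription factor Sox17 (1.63-fold lower), Ecscr (1.47-fold lower), VE-cadherin Cdh5 (1.40-fold higher) and the complement-related receptor Cd93 (1.34-fold lower). With spike-in scaling the median was -0.37.

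Genes of position along the sinusoid differed in both directions. Of 12 measured genes 1 passed 2-fold downward and none upward, with a median of -0.08. Msr1, a scavenger receptor shared with macrophages, was 2.14-fold lower, at 3158 against 1156, a call lost at -0.81 on the log2 scale when only unflagged spots set the percentile. The anticoagulant receptor thrombomodulin (Thbd) was 1.96-fold lower, at 13370 against 5358, and stood at -1.34 on the log2 scale with spike-in scaling. With median, quantile, loess or spike-in scaling, or the percentile of detected probes, 2 of the 12 genes passed 2-fold downward. With the percentile of unflagged spots 0 did. The Wnt ligands of central vein endothelium split: Wnt9b was 1.54-fold lower, at 2505 against 1279, and Wnt2 1.62-fold higher, at 192.7 against 244.4. Wnt2 was dim, and its difference of 0.69 was 0.26 under normexp background correction. Rspo3, the Wnt enhancer of the central vein, differed by 0.21 (named after its value was seen).

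Of all measured genes on the endothelial lists, Pgf, placental growth factor, differed most. It gave a signal of 1374 in the PBS pool and 105.8 in the TSG-6 pool, 10.2-fold lower. Its log2 difference ran from -3.72 to -2.60 over the alternatives that kept it. At a TSG-6 level of -4.55, Pgf was too dim for the stricter filter on dim probes. That filter left 21 genes of the endothelial signalling list measured and 0 past 2-fold. Under the main setting Pgf was the only one of 22 measured endothelial signalling genes past 2-fold. With spike-in scaling 3 were at least 2-fold lower, with Klf4 at -1.24 and Hey1 at -1.14 on the log2 scale. Under the main setting that list had a median of 0.01, and 2 genes had flagged spots only. Next came Klf4, a flow-responsive transcription factor (1.82-fold lower), Hey1, a Notch target (1.70-fold lower), and the BMP9 receptor Acvrl1 (a log2 difference of -0.59). Klf2, the other flow-responsive factor, differed by 0.33 and Nos3, endothelial nitric oxide synthase, by -0.04; both were named after their values were seen. Pgf and Klf4 are also made by cells other than endothelium.

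Of 19 genes of continuous and activated endothelium 18 were measured, with a median of 0.07. Of these, 1 passed 2-fold upward and 3 downward, beside 2.94% and 4.29% of all measured genes. Esm1, a proteoglycan of VEGF-stimulated tip cells, was 2.06-fold higher, at 3076 against 4960, and the vessel-destabilising ligand Angpt2 was 2.02-fold lower, at 2124 against 823. Both were under 2-fold in some alternatives, Esm1 at 0.67 with spike-in scaling and Angpt2 at -0.73 with the percentile of unflagged spots. The adhesion molecule Vcam1 was 4.99-fold lower with the only measured 1 of its 2 probes, a log2 difference of -2.32. With flagged spots kept, so that the other probe could also be read, the log2 difference of Vcam1 was -0.16. Col15a1 was 2.76-fold lower with its brightest probe, while its 3 probes ran from -1.46 to 0.04. It was dim, with a TSG-6 signal of 39.6, and its log2 difference was -0.51 under normexp background correction. Sele, E-selectin, cleared background with PBS alone, and its level after TSG-6 was at least 1.45-fold lower. Its PBS level of -6.52 was close to the lowest detected level of the TSG-6 array, -7.06, and the bound shifts with the scaling.

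Genes of the basement membrane, which is laid down under capillarized endothelium and by stellate cells, lay on both sides of 0. Of 10 genes 8 were measured, 5 of them below 0 and 3 above, with a median of -0.32 that stayed below 0 in all 12 alternatives, at -0.03 with the percentile of unflagged spots. None passed 2-fold in either direction under the main setting. With spike-in scaling Nid1 (-1.10 on the log2 scale) and Col4a1 (-1.03) passed 2-fold downward. Nid1 also did when read as the mean of its probes (-1.61). Nid1 was 1.66-fold lower (over its 3 probes the log2 difference went from -2.92 to -0.73), Col4a1 1.58-fold, Lamc1 1.49-fold and Lama5 1.46-fold. The 3 above 0 were Lama4 (1.34-fold higher), Lamb2 (1.15-fold) and the perlecan gene Hspg2 (a log2 difference of 0.14), named after their values were seen. Over the 6 other endothelial lists together, each gene counted once and the 10 genes left out, 6.67% of 90 measured genes were past 2-fold, beside 7.23% of all genes.

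**Figure D4:**
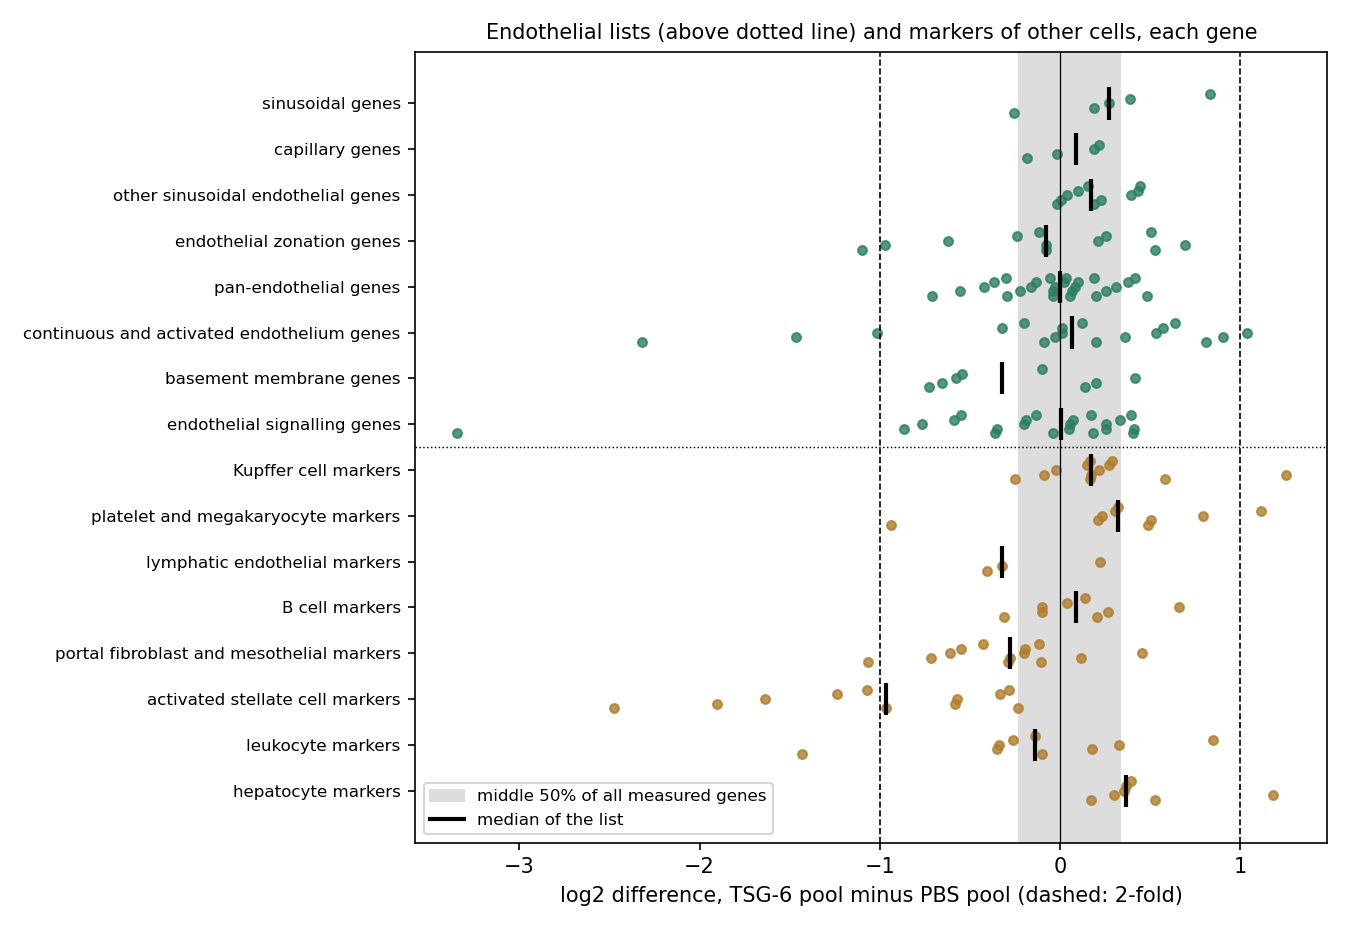
Log2 difference between the TSG-6 and PBS pools (horizontal axis) for each measured gene of the endothelial lists (above the dotted line) and of marker lists of other cells (below it); black bars are list medians, the grey band the middle 50% of all measured genes and the dashed lines 2-fold. The activated stellate cell list stands furthest left, with a median of -0.97, and Pgf is the single point at -3.35.

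Several of the 10 genes are also expressed outside endothelium, so markers of those cells are given here. Stab1 and Fcgr2b are made by macrophages too: the 12 Kupffer cell markers had a median of 0.17, close to the difference of Fcgr2b, with 1 at least 2-fold higher (Timd4, 2.39-fold, or 0.88 on the log2 scale with spike-in scaling). Their summed level, in multiples of the array's 75th percentile, was 110.6 in the PBS pool and 121.6 in the TSG-6 pool. For B cells, another source of Fcgr2b, the 8 markers had a median of 0.09 and summed to 5.23 and 6.29. For Vwf and Pecam1, 9 of 10 platelet and megakaryocyte markers were measured, with a median of 0.32; they summed to 8.04 and 5.76, and without Pf4, which was 1.92-fold lower, to 2.10 and 2.65. Gp9 was 2.17-fold higher (0.74 on the log2 scale with spike-in scaling and 0.86 under normexp), and Gp5 was well above background in the TSG-6 pool only (at least 1.78-fold higher). Gp5 was dim, at a level of -6.21 in the TSG-6 pool, and its bound shifts with the scaling. For Cd34, all 13 portal fibroblast and mesothelial markers were measured, 11 of them below 0 with a median of -0.28, or 0.01 with the percentile of unflagged spots, where 5 lay below 0. Cd248 was 2.09-fold lower (-0.78 on the log2 scale with that percentile). These markers summed to 23.3 and 24.2, and without the brightest, Gas6 (10.8 and 14.9), to 12.5 and 9.31. For Lyve1, 3 of 5 lymphatic markers were measured, with a median of -0.32 and sums of 1.63 and 1.46, or 0.69 and 0.76 without the brightest, Pdpn. The part of these cells in the differences of the 10 genes was not tested. No marker of these lists with an unflagged spot was below background on both arrays; Ccl21a, of the lymphatic list, had no matched probe.

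The activated stellate cell markers give the size of change that these arrays show elsewhere in the same livers. Of 11 measured, 5 were at least 2-fold lower, beside 4.29% of all measured genes, and none higher. The median was -0.97, and these 5 were Acta2 (5.55-fold lower), Cthrc1 (3.75-fold), Lox (3.11-fold), Des (2.35-fold) and Tagln (2.10-fold). With the percentile of unflagged spots 3 were past 2-fold, with Des at -0.95 and Tagln at -0.78 on the log2 scale. The stricter filter on dim probes dropped Cthrc1 and Lox. It left 9 genes measured, 3 of them at least 2-fold lower, with a median of -0.58. Cthrc1, at -1.91, was -1.17 under normexp, and the Lox probes read -1.64 and -0.43. The hepatocyte markers had a median of 0.37 over 7 genes, with Cyp2e1 2.27-fold higher (0.81 on the log2 scale with spike-in scaling). The 9 measured of 10 general leukocyte markers had a median of -0.14, with 3 above 0 and 6 below. Itgax was 2.70-fold lower, and S100a8, named after its value was seen, was 1.80-fold higher. The leukocyte markers summed to 57.1 in the PBS pool and 65.1 in the TSG-6 pool, or 37.5 and 40.5 without the brightest, Itgam. These markers came from lists chosen with earlier results of these arrays known. Under the main setting the medians of the sinusoidal and capillary genes, 0.27 and 0.09, lay between those of the stellate cell and hepatocyte lists. This order failed with quantile normalization, where the hepatocyte median was -0.01, below the sinusoidal 0.16 and the capillary 0.002. It also failed with loess, where the hepatocyte median was 0.03, below the sinusoidal 0.12 but above the capillary -0.02. The order held in the other alternatives.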

How the data were processed

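Liver RNA pools of 2 groups were measured on 1 one-colour array each, labelled from 0.2 ug of RNA per the labels' protocols. The scanner intensity deposited for every spot is the processed signal, from which background and spatial trends were removed by Agilent Feature Extraction, version 11.5.1.1 per the file headers and 10.7 per the submitters' processing notes. The deposited value table gives log2 values; for 100.0% of the 55249 single-spot probes a column differed from log2 of the processed signal by a fixed amount, within 0.001, with column medians of -3.89 for PBS and -3.76 for TSG-6, so no centring across arrays was found.

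From the signals, log2 values were taken and the 75th percentile of all non-control spots of an array was subtracted, with Python 3.11.15 and pandas 2.3.3. Control and outlier-flagged spots were left out, repeat spots were averaged, and a probe counted as measured when no fewer than 50% of its spots cleared background. A gene was read from its brightest measured probe. Transcript accessions were matched to symbols, without versions, through a RefSeq table of GRCm38.p6; the array was designed on mm9, so its coordinates were not used, and of 55681 probes 26762 matched. Genes were counted at a fixed size of 2-fold, with no test. Genes above background on 1 array got a lower bound against the lowest detected level. The 10 genes were named in full. From each other endothelial list, those past 2-fold were named, filled up to 4 by size, and any measured on 1 array only. From the marker lists of other cells, those past 2-fold or measured on 1 array only were named, without filling. Some other genes were also named, such as the brightest of a list and genes picked after their values were seen. The genes, lists and these rules were chosen with earlier results of these data known. Normexp (offset 50), quantile and loess used limma 3.58.1; normexp took the median spot signal, as the mean was not among the columns used here. Scaling to the 75th percentile, averaging and the 2-fold count were tested on simulated arrays. No gene was named for a similar pattern, since 2 arrays give none.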

Additional observations from a re-analysis of the deposited data

How the results depend on the processing

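Alternatives changed 1 choice at a time, over 12 settings, except that normexp also started from another spot signal (the median): the scaling, the background correction, the deposited values, flagged spots, the filter on dim probes and the choice of probe. A log2 value was taken as moved when it shifted by more than 0.13, the SD between repeat spots, and a count of all genes when it changed by over 1.5 times. The sinusoidal median moved from 0.27 to 0.56 with the percentile of unflagged spots, to 0.12 with loess on the signal and to -0.10 with spike-in scaling; the capillary median moved from 0.09 to 0.38 with the percentile of unflagged spots and to -0.29 with spike-in scaling. With the percentile of unflagged spots 1 of the 9 genes, Dnase1l3, was at least 2-fold higher; the count was 0 in the other 11 settings, and that of genes at least 2-fold lower was 0 in all 12. The gap between the medians and that between Dnase1l3 and Lyve1 moved in none of the 12. Constant scaling cannot move either gap. Dnase1l3 and Lyve1 also have 1 probe with 1 spot each, so neither flags nor probe choice could move the second. With quantile normalization the gaps were 0.15 and 1.12, with loess 0.14 and 1.12, and with normexp 0.19 and 1.07. Over all genes, 1096 were past 2-fold; normexp gave 692, dropping the dim-probe filter 1864 and tightening it 641, while spike-in scaling gave 1599 and the percentile of unflagged spots 1394, both within 1.5 times. The median of all genes moved from 0.08 to 0.37 with the percentile of unflagged spots, to -0.06 with loess and to -0.30 with spike-in scaling. No paired analysis was possible because each group has 1 array, and for the same reason no replicate could be left out. The number of arrays limits the precision; the brightest probe of each of the 10 genes gave at least 38.2 times its local background.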
